A study of Mus musculus with 24 samples.

Results

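Gabra2 encodes the alpha2 subunit of the GABA-A receptor, and it was followed here as 1 of the 33902 transcript symbols counted in nuclei of the mouse ventral hippocampus. Its row was taken by its name, for a gene proposed with earlier results of these data known. Its counts were read in every cell type of the single-nucleus RNA sequencing (snRNA-seq), together with the 34 peaks, of 300819 in all, that single-nucleus chromatin accessibility sequencing (snATAC-seq) placed over the gene extended by 2 kb on each side. Tissue came from adult males of 2 inbred strains, C57BL/6J (B6) and DBA/2J (D2), aged 10 to 16 weeks and given no treatment. Each strain had 2 libraries per assay, each from a pool of about 2 animals, so that the spread reported is that between pools. Nuclei for snRNA-seq were sorted to enrich for NeuN, a neuronal nuclear protein, and those for snATAC-seq were not. The authors assigned nuclei to 17 cell types in snRNA-seq, of which 15 were also in the snATAC-seq table.

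GABA-A receptors are pentameric chloride channels opened by GABA, the main inhibitory transmitter of the adult brain. Most hold alpha, beta and gamma subunits, and the alpha subunit sets much of where the receptor sits and which drugs act on it. Receptors with alpha2 are known in the hippocampus from the axon initial segment and soma of principal cells, and they carry much of the anxiolytic action of benzodiazepines. C57BL/6J is known to carry a small intronic deletion at the splice acceptor before exon 5 of Gabra2, which was described as lowering its brain mRNA and protein. The counts here went against that order in these nuclei: Gabra2 was at a higher mean level in B6 than in D2 in 17 of 17 cell types. The cell types share their libraries, so these are not 17 independent comparisons. The earlier effect was described in brain mRNA and protein, while these are nuclear counts of exon and intron reads from the ventral hippocampus.

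In the mm10 build Gabra2 (ENSMUSG00000000560.9) lies on the minus strand of chr5:70957597-71095849, a span of 138253 bases with 10 exons and 9 introns. No other annotated gene overlapped it. The acceptors of introns 3, 4 and 5 are shown because the known deletion sits at the one before exon 5. Each is given as read on the strand of the gene, with the last 20 bases of the intron and the first 3 of the exon, and with the AG that ends the intron in capitals. They were read from the mm10 genome, which derives from C57BL/6J and so is the B6 sequence.
Intron 3, chr5:71034795-71034817: ctttcttttcttcctcttAGaca
Intron 4, chr5:71014634-71014656: aattgtaaatttatatttAGgag
Intron 5, chr5:71012781-71012803: agtggcattttggcttctAGgct
The stretch before the AG held 10 pyrimidines of 18 bases in intron 4, as in intron 2, and 11 to 18 in the other introns of the gene. The counts sum exon and intron reads of all nuclei of a type, so splicing at these sites was not measured.

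The promoter is shown because the strongest of the 34 peaks covered it. The 250 bases upstream of the start site, chr5:71095850-71096099 on the minus strand of RefSeq's GRCm38.p6 assembly, are printed with each CG dinucleotide in capitals.
Gabra2 promoter: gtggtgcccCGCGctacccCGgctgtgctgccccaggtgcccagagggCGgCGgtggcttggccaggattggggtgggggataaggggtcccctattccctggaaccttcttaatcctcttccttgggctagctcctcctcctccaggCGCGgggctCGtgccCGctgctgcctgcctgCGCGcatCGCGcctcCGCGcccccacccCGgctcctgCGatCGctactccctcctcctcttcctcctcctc
It held 18 CpG sites, or 72.0 per kb, more than 78.3% of the 32851 promoters of the table. Searched on both strands, it held 1 match to GGGCGG, the GC box, found in 32.7% of the promoters, and 1 match to CCAAT, found in 33.8%. It held no match to TATAAA, found in 12.4% of the promoters, or to the cyclic AMP response element TGACGTCA, found in 1.55%.

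The summed snRNA-seq counts of a library ran from 43048686 to 56452272 and its nuclei from 6312 to 8707. Symbols counted in only one strain took 0.778% and 0.849% of the B6 totals and 3.55% and 3.56% of the D2 totals. Of 44 cell type markers, 39 were highest in a cell type of their label, and the exceptions were Slc17a6, Prox1 and Ndnf, highest in Cajal-Retzius cells (CR-CR), Lhx6, highest in Inh-Lamp5, and Bok, highest in NN-VLMC. Gabra2 was counted in all 68 columns of cell type and library, with 12 to 8556 counts each.

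Gabra2 was highest in principal neurons of the dentate gyrus, CA1 and CA3 and lowest in oligodendrocytes. Levels are counts-per-million values (CPM), scaled to all counts of that cell type in that library. In dentate granule cells (Exc-DG) the B6 libraries had 713 and 754 CPM and the D2 libraries 543 and 562 CPM. In the CA1 type Exc-CA1-Galntl6 the values were 698 and 700 CPM in B6 and 633 and 673 CPM in D2. In Exc-CA1-Camk2d they were 718 and 669 CPM in B6 and 582 and 617 CPM in D2. Both D2 libraries lay below both B6 libraries in each of these 3 types, with the widest gap in the granule cells.
In CA3 pyramidal cells (Exc-CA3) Gabra2 stood at 611 and 581 CPM in B6 and 522 and 538 CPM in D2. In Exc-CA1-Fras1 it stood at 459 and 545 CPM in B6 and 455 and 423 CPM in D2, so that the closest libraries of the strains nearly met.

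Among the other excitatory types the level was lower. Exc-Gpc6 had 401 and 419 CPM in B6 against 271 and 261 CPM in D2, and the strains stood well apart. Exc-Cdh12 had 251 and 278 CPM in B6 and 194 and 253 CPM in D2, where the higher D2 library passed the lower B6 library. The entorhinal type Exc-ENT had the lowest Gabra2 of the excitatory types, with 96.7 and 108 CPM in B6 and 87.7 and 82.8 CPM in D2. The excitatory types thus spanned most of the range of the gene.

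Inhibitory neurons, labelled by the ganglionic eminence of their origin or by a marker gene, were intermediate. The caudal type Inh-CGE had 408 and 363 CPM in B6 and 316 and 280 CPM in D2. The medial type Inh-MGE had 179 and 195 CPM in B6 and 150 and 163 CPM in D2, and Inh-Lamp5 had 156 and 155 CPM in B6 and 140 and 127 CPM in D2. The strains did not overlap in any of these 3 types. In Cajal-Retzius cells, early-born neurons kept in small number in the adult, the values were 352 and 277 CPM in B6 and 200 and 370 CPM in D2. There the D2 libraries bracketed both B6 libraries, on 28 and 60 counts from 45 and 46 nuclei.

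Astrocytes (NN-Astro) had the highest Gabra2 level of the non-neuronal types, with 423 and 460 CPM in B6 and 313 and 319 CPM in D2. Oligodendrocyte precursors (NN-OPC) had 133 and 148 CPM in B6 and 62.9 and 89.1 CPM in D2. Microglia (NN-MGC) had 107 and 91.4 CPM in B6 and 31.9 and 60.7 CPM in D2. In these 3 types each D2 library was below each B6 library.
Vascular and leptomeningeal cells (NN-VLMC) had 71.1 and 83.2 CPM in B6 and 57.3 and 38.5 CPM in D2, on 12 to 40 counts. Oligodendrocytes (NN-ODC) had 47.3 and 65.1 CPM in B6 and 48.2 and 38.4 CPM in D2, and there the strains overlapped.

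**Figure D1:**
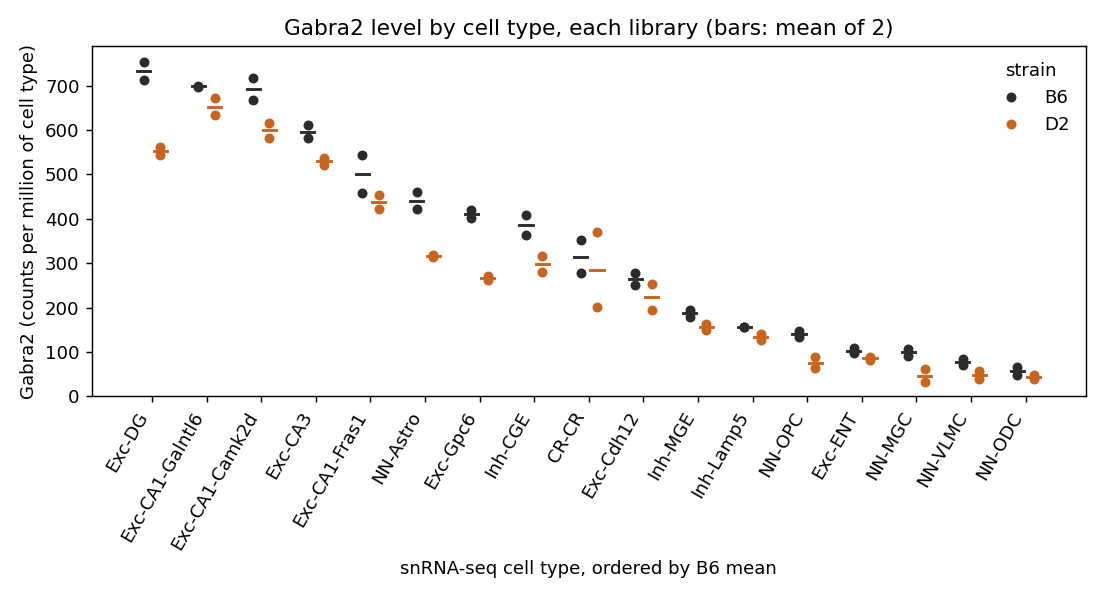
Gabra2 level in CPM (vertical axis) in each of the 17 cell types (horizontal axis), with 1 point per library, B6 in black and D2 in orange, and bars at the mean of 2 libraries. Both D2 points lie below both B6 points in 14 of 17 cell types, and the levels run from 754 CPM in the higher B6 library of Exc-DG to 31.9 CPM in the lower D2 library of NN-MGC. The share of all transcripts with such separation was not counted, so 14 of 17 has no background beside it.

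The order of the cell types was much alike in the strains, with a Spearman correlation of 0.98 between the B6 and D2 means over 17 types, a description in which both strains share cell type names and library preparation. The highest mean was 13 times the lowest in B6 and 15.1 times in D2. Exc-DG ranked above Exc-CA1-Galntl6 in B6 and below both it and Exc-CA1-Camk2d in D2. Of the 16 pairs of neighbours in the order, 5 had overlapping library ranges in B6 and 6 in D2. In B6 these were Exc-CA1-Galntl6 and Exc-CA1-Camk2d, Exc-CA1-Fras1 and NN-Astro, Exc-Gpc6 and Inh-CGE, CR-CR and Exc-Cdh12, and Exc-ENT and NN-MGC. In D2 they were NN-Astro and Inh-CGE, Inh-CGE and CR-CR, CR-CR and Exc-Gpc6, Exc-ENT and NN-OPC, NN-VLMC and NN-MGC, and NN-MGC and NN-ODC.

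Counted per nucleus, astrocytes stood further below Exc-DG. Exc-DG held 501 and 640 Gabra2 counts per 100 nuclei in B6 and 397 and 426 in D2, while astrocytes held 117 and 150 in B6 and 93.2 and 111 in D2. Astrocyte nuclei had fewer counts in all, with 2766 and 3254 per nucleus in the B6 libraries against 7023 and 8497 for Exc-DG. On this scale the mean was lower in D2 in 17 of 17 cell types, with D2 to B6 ratios from 0.515 in NN-OPC to 0.983 in CR-CR, and the strains did not overlap in 11 of the 17. How often other transcripts separate the strains in this way was not counted.

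Whether the strain changes Gabra2 within a cell type was tested on raw counts with edgeR, fitting all transcripts of the type together. Summed over all cell types the libraries held 26240 and 27253 Gabra2 counts in B6 and 20482 and 17436 in D2. Gabra2 was lower in D2, with a log2 fold change (D2 minus B6) of -0.32 ± 0.065 (SE, n = 2 libraries per strain, adjusted p = 0.00092), where 46.7% of the 25728 transcripts tested were called. In such sums fewer cells of a type and less RNA per cell cannot be told apart. Among the 21475 transcripts counted in both strains 36.1% were called, so many differed between the strains. The shares called in each cell type also include symbols counted in only one strain. Among transcripts counted in both strains the share in Exc-DG was 28% in place of 36%. Within the cell types Gabra2 was called at an adjusted p below 0.05 in 8 of 17, each time lower in D2, and its log2 fold change was negative in all 17, from -0.98 to -0.13 with a median of -0.30. At an unadjusted p below 0.05 it passed in 11 types. All 17 types share the same libraries, so they are not independent comparisons. Among all transcripts counted in both strains, the median log2 fold change lay between -0.0034 and 0.013 in the 17 cell types.

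Among neurons Gabra2 fell furthest in Exc-Gpc6, with a log2 fold change of -0.66 ± 0.10 (SE, adjusted p = 2.47e-06), in a type where 19.7% of all transcripts were called. In Exc-DG it fell by 0.43 ± 0.062 on the log2 scale (adjusted p = 5.41e-05, 36% called). In Inh-CGE the Gabra2 change was -0.39 ± 0.12 (adjusted p = 0.0389, 15.1% called). The mean level of Gabra2 went from 410 to 266 CPM in Exc-Gpc6, from 733 to 553 CPM in Exc-DG and from 386 to 298 CPM in Inh-CGE.
Smaller changes passed in Exc-ENT, at -0.31 ± 0.10 (adjusted p = 0.0222, 28% called), and in Exc-CA1-Fras1, at -0.26 ± 0.087 (adjusted p = 0.0257, 28.5% called). In both, the call for Gabra2 did not hold with DESeq2 (adjusted p = 0.219 and 0.0629) or without either B6 library 3 or D2 library 3. The call in Inh-CGE was lost with DESeq2 (adjusted p = 0.112), and without B6 library 2 or either D2 library (adjusted p = 0.239 to 0.424).

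The other neuronal types did not pass. For Gabra2 in Exc-CA3 the change was -0.20 ± 0.073 (adjusted p = 0.0515, 32.1% called), just over the threshold. In Exc-CA1-Galntl6 it was -0.13 ± 0.053 (adjusted p = 0.0701, 35% called), the smallest of all types although this type had among the most Gabra2 counts. In Inh-MGE it was -0.30 ± 0.11 (adjusted p = 0.0619, 21% called). These 3 estimates lay more than 2 SE below 0.
In Exc-CA1-Camk2d the Gabra2 change was -0.24 ± 0.11 (adjusted p = 0.179, 19.4% called) and in Inh-Lamp5 it was -0.25 ± 0.16 (adjusted p = 0.363, 12.1% called). In Exc-Cdh12 it was -0.30 ± 0.17 (adjusted p = 0.389, 8.44% called) and in CR-CR -0.15 ± 0.27 (adjusted p = 0.867, 4.26% called). The sign in CR-CR turned to 0.17 without D2 library 2, so no direction can be read there.

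Gabra2 fell in 3 of the 5 non-neuronal types. It fell by 0.86 ± 0.15 in precursors (adjusted p = 7.09e-07, 16.2% called) and by 0.39 ± 0.094 in astrocytes (adjusted p = 0.00129, 26.2% called). In microglia Gabra2 fell by 0.98 ± 0.29 (adjusted p = 0.0388, 10.4% called), the largest estimate of all types, on 14 to 68 counts a library. The microglial call was lost with DESeq2 (adjusted p = 0.586), without B6 library 2 (adjusted p = 0.0701) and without D2 library 2 (-0.62, adjusted p = 0.301), and the astrocyte call without D2 library 2 (adjusted p = 0.0515).
The change was -0.29 ± 0.19 in oligodendrocytes (adjusted p = 0.34, 19% called), or -0.052 without B6 library 3, and -0.56 ± 0.35 in vascular and leptomeningeal cells (adjusted p = 0.433, 7.87% called).

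Counts of neuronal markers in the non-neuronal columns moved in the same direction as Gabra2. The summed level of Rbfox3, Snap25 and Syt1, all markers of neurons, was 3404 to 3521 CPM in the 4 libraries of Exc-DG. In microglia it was 751 and 652 CPM in B6 and 331 and 529 CPM in D2, a log2 ratio of -0.71 where that of Gabra2 was -0.98. In oligodendrocytes the sum was 325 and 384 CPM in B6 and 288 and 191 CPM in D2, a log2 ratio of -0.56 where that of Gabra2 was -0.29. In vascular and leptomeningeal cells it was 415 and 555 CPM in B6 and 289 and 260 CPM in D2, a log2 ratio of -0.82 where that of Gabra2 was -0.56. In each of these types both D2 libraries were below both B6 libraries.
In astrocytes the same sum was 265 and 323 CPM in B6 and 241 and 155 CPM in D2, below the Gabra2 level of each library. Its log2 ratio there was -0.57 where that of Gabra2 was -0.39. In precursors it was 490 and 534 CPM in B6 and 462 and 379 CPM in D2, a log2 ratio of -0.28 where that of Gabra2 was -0.86. The part of this neuronal RNA in the non-neuronal values of Gabra2 was not tested.

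**Figure D2:**
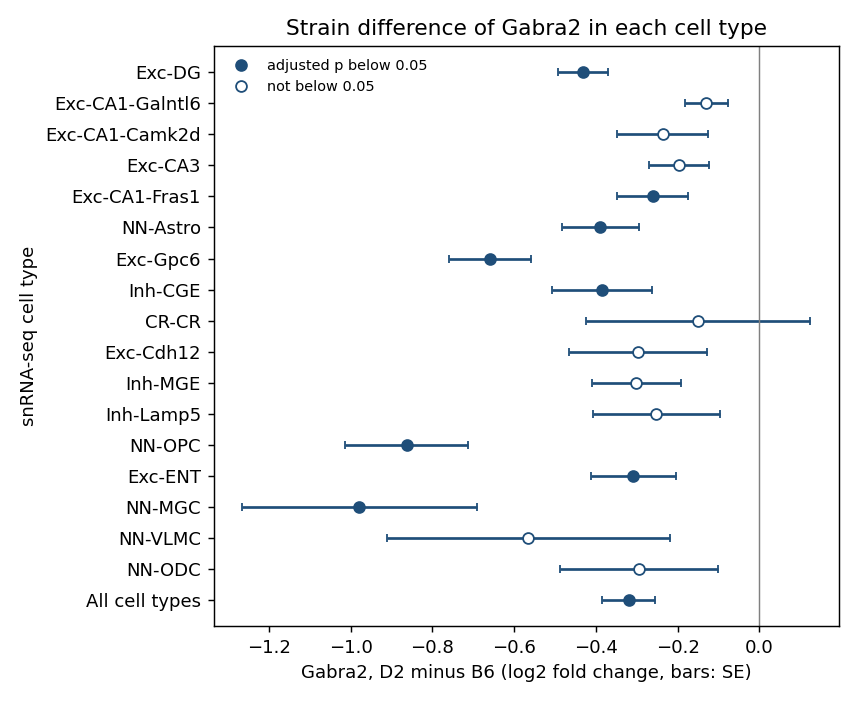
Log2 fold change of Gabra2, D2 minus B6 (horizontal axis), in each cell type and in the sum over all types (vertical axis), with SE bars from edgeR and 2 libraries per strain. All 17 estimates are below 0, from -0.98 in NN-MGC to -0.13 in Exc-CA1-Galntl6, and filled points mark the 8 types and the sum with an adjusted p below 0.05.

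Whether the strain difference of Gabra2 itself varied between cell types was asked in a joint fit of all 68 columns. The 16 terms of strain by cell type gave F = 2.00 (adjusted p = 0.116), where 14.6% of 21050 transcripts were called, so the cell types were not shown to differ. The mean difference in the 8 excitatory types minus that in the 3 inhibitory types was -0.0017 on the log2 scale, with a 95% interval of -0.186 to 0.182 (adjusted p = 1, 1.67% called). The interval leaves room for a difference of either sign. The mean difference in the neuronal types, CR-CR included, minus that in the 5 non-neuronal types was 0.31, with a 95% interval of 0.0836 to 0.528 and an unadjusted p of 0.00639. After adjustment it did not pass (adjusted p = 0.0935, 4.86% called). Without NN-MGC and NN-VLMC, which had under 20 Gabra2 counts in a library, this difference was 0.21 (adjusted p = 0.252, 5.48% called).

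The other subunits of the receptor were read from a list of 18 genes. They were tested in 164 combinations of gene and cell type, of which 39 (23.8%) were called lower in D2 and 6 (3.66%) higher. Over all transcripts and the 17 cell types together, 9.25% of combinations were called lower and 12.9% higher, shares that include symbols counted in only one strain. The median log2 fold change of the list was below 0 in 16 of 17 cell types. In Exc-DG, where 12 of the 18 were tested, the median was -0.070. Over all transcripts it was 0.056, and over those counted in both strains 0.012. Of the 12 tested, 2 were called lower, where 13.8% of all transcripts were, so that the count was near the background. In astrocytes 11 were tested with a median of -0.38, and 4 were called lower, where 11.7% of all transcripts were, and 1 higher. In oligodendrocytes 9 were tested with a median of -0.97, and 6 were called lower, where 8.93% of all transcripts were.

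Among the alpha subunits, Gabra5, which forms mainly extrasynaptic receptors in the hippocampus, was lower in D2 in 8 of 15 cell types tested, with a log2 fold change of -0.64 ± 0.080 in Exc-CA1-Galntl6, where Gabra2 did not pass. Gabra4, found in extrasynaptic receptors of granule cells, was called lower in 3 of 15 types, and Gabra3 in 1 of 13. Gabra6, the cerebellar alpha subunit, was tested in 0 types. Of these, Gabra5 had estimates below 0 in 15 of 15 types, Gabra4 in 12 of 15 and Gabra3 in 11 of 13.
Among the beta and gamma subunits, Gabrg3 was lower in D2 in 7 of 16 types. In Exc-DG Gabrg3 had 1931 and 2187 counts in B6 and 679 and 494 in D2, which is a log2 fold change of -1.47 ± 0.092. Gabrb2 was called lower in 1 and higher in 2 of 16 types. The delta subunit Gabrd was called in 0 of 9 types, with 2 estimates below 0.

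**Figure D3:**
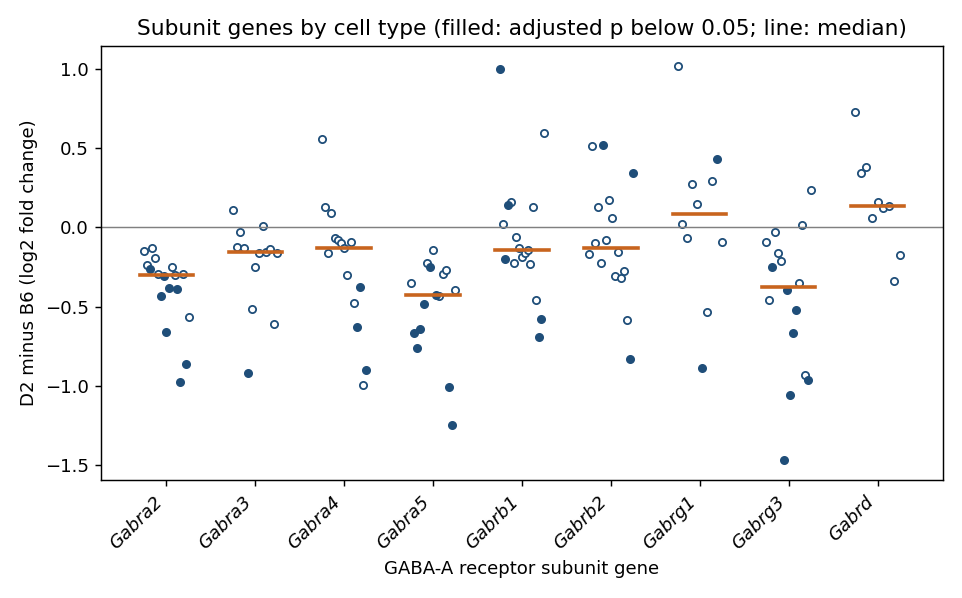
Log2 fold change, D2 minus B6 (vertical axis), of Gabra2 and 8 other GABA-A receptor subunits tested in 9 or more cell types (horizontal axis), with 1 point per cell type, filled where the adjusted p was below 0.05, and a line at the median over types. All 17 points of Gabra2 and all 15 of Gabra5 are below 0, while the 17 points of Gabrb1 spread from -0.69 to 1.00.

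Genes of the inhibitory synapse outside the receptor were seldom called. Of 13 such genes, tested in 208 combinations with a cell type, 1 (0.481%) was called lower in D2 and 11 (5.29%) higher, both below the shares of all transcripts given above. Gphn, the gephyrin scaffold that anchors receptors with alpha2, had a log2 fold change above 0 in all 17 types and was called higher in 5. Nlgn2, the neuroligin of inhibitory synapses, was called lower in 1 of 17.

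Gabra2 lies in a cluster of receptor genes, and 8 of the 11 other genes annotated within 1 Mb were in the count table. Gabrg1, 114980 bases away, was called higher in D2 in astrocytes and lower in Exc-Gpc6 among 10 types tested. Gabra4, 473900 bases away, was called lower in 3 of 15, as given above. Gabrb1, 562264 bases away, was called lower in 3 of 17 types and higher in 2.
Cox7b2, a subunit of cytochrome c oxidase, was called in 0 of 8 types, and the antisense gene Gm38562 was called lower in 1 of 10, Exc-DG, at -0.35 ± 0.10. Gm38562 lies within the span of Gabrb1 on the opposite strand, so reads of the pair are uncertain where strand was not used in counting. No neighbour counted in both strains was below 0 in every cell type tested, as Gabra2 was. Gm15617 and Gm42653 had 0 counts in both B6 libraries summed over types and 1067 to 1247 and 163 to 173 in D2 and so were symbols counted in only one strain. Gm15616 was tested in 0 types.

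The transcripts whose level over cell types was most like that of Gabra2 were sought among 13602, by the smaller of the Pearson correlations in B6 and D2 of log2(CPM + 1) over 17 cell types. They were Gria2, the AMPA receptor subunit GluA2, with 0.84 in B6 and 0.83 in D2, then Hectd2os, 1700110K17Rik, Gm48622 and Hsd3b2, with a smaller correlation of 0.82 to 0.80. Among the receptor subunits described, Gabrb1 was the nearest, at rank 83 with 0.73. The points share libraries and depth, and no test was made.
Gria2 had its lowest mean over the 4 libraries in oligodendrocytes, 278 CPM, where Gabra2 also had its lowest, 49.8 CPM. The rank of Exc-ENT set them apart, with 1876 CPM for Gria2 and 93.8 CPM for Gabra2.

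The strongest single peak over the gene was at the promoter. This peak, chr5:71094614-71096831, covered exons 1 and 2 and held 38.3 CpG sites per kb, and it took 30.8% of all snATAC-seq counts in the 34 peaks. Summed over cell types it stood at 37.0 and 37.2 CPM in B6 and 38.9 and 41.0 CPM in D2. The next strongest were a peak in intron 8 (chr5:70995407-70996748) with 12.5% of the counts, one in intron 4 (chr5:71024993-71026952) with 9.57% and one in intron 6 (chr5:71010755-71012070) with 8.53%. The promoter peak was thus ahead of every intronic peak in each library.

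**Figure D4:**
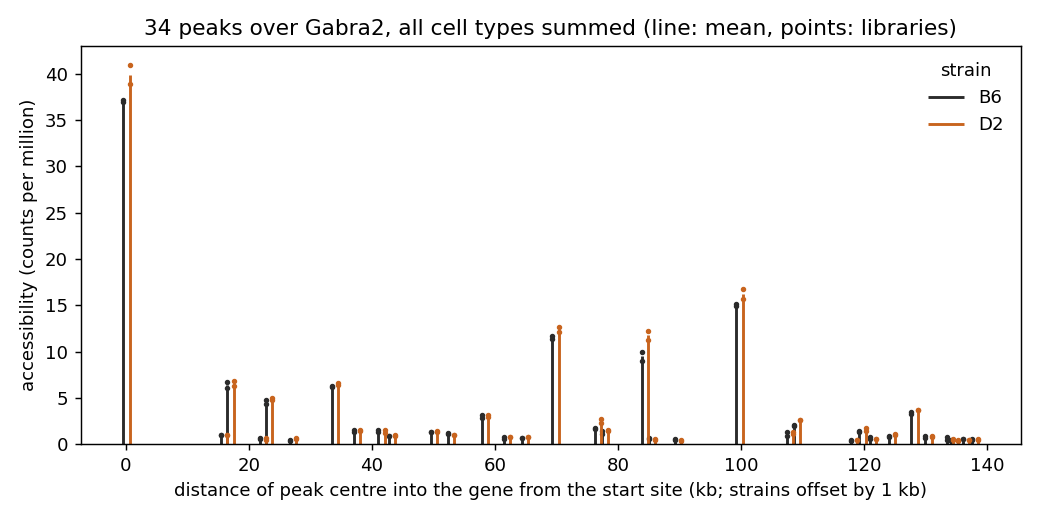
Accessibility of the 34 peaks over Gabra2 in CPM, scaled to all snATAC-seq counts of a library, (vertical axis), summed over cell types, by the distance of the peak centre from the start site in kb (horizontal axis), with a line at the mean and points for the 2 libraries of each strain, the strains offset by 1 kb. The promoter peak reaches 37.0 to 41.0 CPM, and the next, 99.8 kb into the gene, 14.9 to 16.8 CPM.

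The promoter peak was open to a similar degree in most types, and the intronic peaks were not. As a mean of 4 libraries the promoter peak ranged from 19.6 CPM in oligodendrocytes to 46.5 CPM in astrocytes. Both ends rest on few counts, 44 in oligodendrocytes and 164 in astrocytes over all 34 peaks and 4 libraries. Over the neuronal types the promoter peak ranged only from 31.4 CPM in Exc-ENT to 43.3 CPM in Inh-Lamp5. The intron 8 peak stood at 20.7 CPM in Exc-DG and 20.4 CPM in Exc-CA1-Galntl6 against 2.92 CPM in Inh-MGE and 5.74 CPM in Exc-ENT. The intron 6 peak stood at 20.7 CPM in Exc-CA1-Galntl6 and 10.5 CPM in Inh-CGE but 4.24 CPM in Exc-DG.
The intron 4 peak stood at 17.5 CPM in Exc-DG, 16.0 CPM in Exc-CA3 and 1.21 CPM in Inh-Lamp5. Exc-ENT, with the least Gabra2 RNA of the excitatory types, was also below Exc-DG and the 3 CA1 types at the promoter and at the intron 8 and intron 4 peaks. At the intron 6 peak, however, Exc-ENT, at 4.38 CPM, was not below Exc-DG. At the intron 4 peak it stood at 5.53 CPM, above Exc-Cdh12 at 4.51 CPM, so accessibility did not follow the RNA throughout.

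The strains were then compared at each peak. Of 510 combinations of peak and cell type, 289 had at least 10 counts and were tested, and 3 of them, 1.04%, were called, where 2.73% of all combinations of the table were. All 3 were higher in D2, in types where the RNA estimate was below 0. Of these types, Gabra2 RNA was called in Exc-ENT but not in Exc-CA1-Galntl6 or Exc-CA3. At an unadjusted p below 0.05, 35 combinations were higher in D2 and 4 lower. The same share over all peaks, by direction, was not counted, and the combinations share libraries and peaks. The split therefore has no background beside it. DESeq2 called 0 of the combinations at an adjusted p below 0.05 and 7 at an unadjusted p below 0.05, and 0 to 2 were called by edgeR when 1 library was left out.

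The peaks called are shown by their central 150 bases, on the strand of the gene, with CG in capitals, because only these passed the test.
Intron 6 peak, chr5:71011338-71011487: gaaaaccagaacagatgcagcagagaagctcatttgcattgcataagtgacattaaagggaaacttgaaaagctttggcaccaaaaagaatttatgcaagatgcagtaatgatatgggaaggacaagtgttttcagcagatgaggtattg
Intron 4 peak, chr5:71025898-71026047: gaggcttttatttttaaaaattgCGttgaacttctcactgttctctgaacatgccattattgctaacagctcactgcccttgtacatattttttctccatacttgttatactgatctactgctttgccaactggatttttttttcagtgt
Second intron 8 peak, chr5:70986671-70986820: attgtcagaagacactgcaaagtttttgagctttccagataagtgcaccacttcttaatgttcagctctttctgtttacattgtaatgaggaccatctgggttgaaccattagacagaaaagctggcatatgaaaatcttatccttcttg
The intron 6 peak was called in Exc-CA1-Galntl6, with 17.1 and 18.3 CPM in B6 and 24.3 and 23.3 CPM in D2 (log2 fold change 0.43 ± 0.094, adjusted p = 0.000293). The intron 4 peak was called in Exc-ENT, with 3.44 and 4.13 CPM in B6 and 7.10 and 7.69 CPM in D2 (0.94 ± 0.27, adjusted p = 0.0407). The second intron 8 peak, chr5:70986345-70987145, was called in Exc-CA3, with 3.33 and 3.74 CPM in B6 and 5.23 and 5.34 CPM in D2 (0.59 ± 0.185, adjusted p = 0.0381). In each, both D2 libraries were above both B6 libraries.

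The promoter peak of Gabra2 was not called in any of the 15 cell types by edgeR, the lowest adjusted p being 0.112, and 4 types had an unadjusted p below 0.05. Its log2 fold change was above 0 in 15 of 15 cell types, from 0.047 in Exc-DG to 0.47 in oligodendrocytes, in the same types in which that of the RNA was below 0 in 15 of 15. In Exc-DG it stood at 39.4 and 42.2 CPM in B6 and 41.2 and 42.9 CPM in D2, and the strains overlapped. In Exc-CA1-Galntl6 it stood at 35.2 and 35.6 CPM in B6 and 40.6 and 41.0 CPM in D2 (log2 fold change 0.20 ± 0.077, adjusted p = 0.112).
Summed over the 34 peaks, accessibility had a higher mean in D2 in 15 of 15 cell types, with log2 ratios from 0.036 to 0.54, and the strains did not overlap in 8 of them. The cell types share their libraries, so these are not 15 independent comparisons. How often the peaks of other genes separate the strains in this way was not counted. The estimates in glia rest on 3 to 49 promoter counts a library and changed sign in microglia, oligodendrocytes and precursors when 1 library was left out, as did that in Exc-DG, to -0.0031 without B6 library 2.

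**Figure D5:**
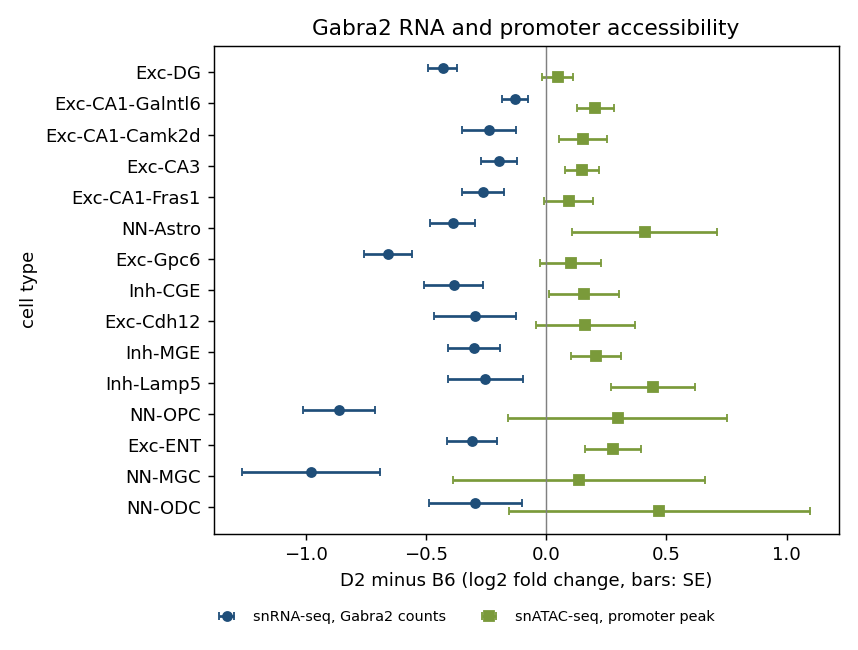
Log2 fold change, D2 minus B6 (horizontal axis), of Gabra2 snRNA-seq counts (circles) and of its promoter snATAC-seq peak (squares) in the 15 cell types with both assays (vertical axis), with SE bars from edgeR and 2 libraries per strain and assay. All circles are below 0 and all squares above it, and no square had an adjusted p below 0.05.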

How the data were processed

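Per the labels and methods, the authors aligned snRNA-seq reads with Cell Ranger 6.0.2, counting intronic reads, and those of snATAC-seq with Cell Ranger ATAC 2.0.0, against mm10 for B6 and mm10 with D2 SNPs substituted for D2, so that deletions and insertions were not carried over. They removed doublets, clustered nuclei with Seurat 4.0.5, called peaks per sample and merged them. The deposited tables hold raw counts per transcript or peak, summed over the nuclei of a cell type and library, with nuclei numbers. The libraries are numbered 2 and 3 within a strain. These numbers differ in part from those of the labels, so a library was placed by its strain only. Symbols of one strain only stayed in the fits. The methylation data were not used here.

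Strains were compared within each cell type with edgeR 4.0.16 (quasi-likelihood F test, TMM scaling, filterByExpr for transcripts, at least 10 counts over 4 libraries for peaks, Benjamini-Hochberg over all features, calls at 0.05). The SE is the log2 fold change divided by the root of F. A joint fit had library, cell type and strain by cell type terms. Alternatives were DESeq2 1.42.0, RLE scaling, other filters, the library number as a replicate block, each library left out and 1 fit of all cell types. The fits were tested on simulated data. Gene names and spans came from GENCODE vM21 and bases from GRCm38.p6. Genes named were Gabra2, the other 18 subunits, 13 genes of the inhibitory synapse, neighbours within 1 Mb and the 5 transcripts most like Gabra2, of those with at least 5 CPM in 3 cell types in each strain. Counts over a list cover all its members, of which some are not reported here by name. The gene and these lists were chosen with earlier results of these data known.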

Additional observations from a re-analysis of the deposited data

How the results depend on the processing

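The direction of the Gabra2 difference held in every cell type under every alternative with all libraries. The calls in Exc-DG, Exc-Gpc6, NN-OPC and the sum over all types held under every alternative run. DESeq2 called 4 types in place of 8, losing Exc-CA1-Fras1 (-0.27), Exc-ENT (-0.32), NN-MGC (-1.01) and Inh-CGE (-0.39). A single fit of all types lost Exc-CA1-Fras1 (-0.30) and Exc-ENT (-0.32), and leaving out transcripts counted in only one strain lost Inh-CGE (-0.39). Exc-CA3 was gained with RLE scaling (-0.20), with a filter of at least 1 count (-0.21) and with the library number as a replicate block (-0.20, adjusted p = 0.0321). The causes of these changes were not tested. The labels do not say that a library number marks a shared litter or day, and deviations of same-numbered libraries correlated between -0.155 and 0.0637 over cell types, so the numbers were not shown to pair the libraries. The replicate block gave 9 types called, and 4 peaks in place of 3, with the promoter peak called in Exc-CA1-Galntl6 (0.20).

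With each library left out in turn, 5 to 7 types were called, the fewest without D2 library 2 or 3. The log2 fold change of Gabra2 then ranged from -0.43 to -0.34 in NN-Astro, -0.38 to -0.22 in Inh-MGE, -0.38 to -0.14 in Exc-CA1-Fras1, -0.28 to -0.19 in Exc-CA1-Camk2d, -0.40 to -0.22 in Exc-ENT, -1.56 to -0.62 in NN-MGC, -0.50 to -0.28 in Inh-CGE and -0.66 to 0.17 in CR-CR. Among types not called, it ranged from -0.48 to -0.052 in NN-ODC, -0.48 to -0.12 in Exc-Cdh12 and -0.95 to -0.34 in NN-VLMC, in each case a shift of over 1.5 times. Inh-MGE was called without B6 library 2 and Exc-CA1-Camk2d without B6 library 3. The F of the strain by cell type terms ranged from 1.385 to 2.585 and was called without D2 library 3 (adjusted p = 0.0415). The excitatory minus inhibitory difference ranged from -0.063 to 0.071, and the neuronal minus non-neuronal difference from 0.23 to 0.38. The number of peaks called ranged from 0 to 2. The promoter peak ranged from -0.0031 to 0.096 in Exc-DG, -0.39 to 0.62 in NN-MGC, -0.24 to 1.59 in NN-ODC and -0.24 to 0.99 in NN-OPC; it was also negative at -0.14 in NN-MGC and -0.059 in NN-ODC without another library. Peaks were called in 0 combinations by DESeq2. No paired analysis of the joint fit was possible because library is already a term in it. Depth limits NN-VLMC, NN-MGC, CR-CR, NN-ODC, NN-OPC and Inh-Lamp5, with under 100 Gabra2 counts in 1 or more libraries.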
